A study of Mus musculus with 6 samples.

Results

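The D-type cyclins, their kinases, the CDK inhibitors and the retinoblastoma gene were measured by RNA sequencing in MC/9, a mouse mast cell line. The 10 genes were taken by symbol (Ccnd1, Ccnd2, Ccnd3, Cdk4, Cdk6, Cdkn1a, Cdkn1b, Cdkn2c, Cdkn2d and Rb1), and all 10 were found among the 49568 genes of the count table. The rPTH group was 3 libraries of MC/9 cells kept with the mouse osteoblast line 7F2 and given rPTH at 10 nM for 24 h. The control group was 3 libraries of MC/9 cells labelled as receiving none. rPTH, which no label spells out, was taken to be parathyroid hormone, a hormone that acts on osteoblasts through a receptor coupled to cAMP. The labels do not say whether the control cells had also been grown with osteoblasts, and all 6 samples carry the same protocol sentence on rPTH, so the group was taken from each sample's own treatment label. Each group is 1 cell line, and no label states that the replicates were separate cultures, so a p-value reflects the spread among these libraries alone, and that spread may be technical.

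D cyclins are made when growth factors or cytokines signal to a resting cell. They bind and activate the kinases encoded by Cdk4 and Cdk6, which phosphorylate the retinoblastoma protein; this frees E2F transcription factors to switch on genes of DNA replication. The INK4 inhibitors bind the D cyclin kinases directly, while the CIP/KIP inhibitors bind cyclin-CDK complexes and block chiefly the CDK2 step. In cells of the blood lineage, mast cells among them, cytokines of the interleukin-3 and stem cell factor type drive division through this switch.

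Total counts were 30623648 to 33577977 in the rPTH libraries and 22282095 to 24993606 in the control libraries. Levels are counts scaled to library size (CPM) with TMM factors, which correct for differences in library composition. A positive log2 fold change means a higher level with rPTH. Mast cell markers were abundant: Cpa3, a granule protease gene, had 1599 to 2097 CPM in rPTH libraries and 1816 to 2642 CPM in controls, and 13 of 14 markers were detected in every library. The 14 summed to 6438, 8342 and 7903 CPM in rPTH 1, 2 and 3 and to 9682, 7971 and 7993 CPM in control 1, 2 and 3. Of 13 tested, 5 had a positive log2 fold change. Groups did not overlap for 1 on the higher side and 3 on the lower, against 8.35% and 8.46% of all tested genes. Osteoblast and stromal marker transcripts were also present in every library, with 26 of 30 markers detected in all 6 and Ibsp, Dcn, Lum and Fap at 0 in at least 1. Detected means at least 1 count, and 24 of the 30 passed the low-count filter. The bone matrix genes Ibsp and Bglap had 0 to 1 and 1 to 5 counts per library. Runx2 had 17.5 to 35.6 CPM and Alpl 14.5 to 33 CPM. The 30 markers summed to 4223, 2688 and 2825 CPM in rPTH 1, 2 and 3 and to 2324, 2125 and 2075 CPM in control 1, 2 and 3, so that the groups did not overlap. Macrophage markers summed to 5.65 to 6.37 CPM in rPTH libraries and 5.28 to 7.5 CPM in controls, and adipocyte markers to 69.4 to 117 CPM in rPTH libraries and 51.1 to 99.8 CPM in controls. Of the 6 adipocyte markers 4 passed the low-count filter. Adipoq, with 1 to 5 counts per library, and Plin1, with 1 to 3, did not. On principal components of all tested genes, control 1 lay far from the rest along the first (53.1% of variance) and control 3 along the second (31.1%). In such bulk RNA, fewer cells of a type and less RNA per cell cannot be told apart.

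The start regions of the kinase genes are shown because the pair shares 1 role but differed widely in transcript level, and because their fold changes lay on opposite sides of 0. RefSeq promoters (GRCm38.p6, 250 bases before the start and 50 from it) were found for 7 of the 10 genes; Ccnd1, Ccnd2 and Rb1 had no entry. The Cdk4 region is chr10:127063285-127063584 on the plus strand and the Cdk6 region chr5:3343643-3343942 on the plus strand. Capitals mark the E box CACGTG, the DNA element read by MYC and related factors, and the CRE core TGACG, the core of the element bound by CREB, on either strand (CGTCA where it lies on the other strand).
Cdk4: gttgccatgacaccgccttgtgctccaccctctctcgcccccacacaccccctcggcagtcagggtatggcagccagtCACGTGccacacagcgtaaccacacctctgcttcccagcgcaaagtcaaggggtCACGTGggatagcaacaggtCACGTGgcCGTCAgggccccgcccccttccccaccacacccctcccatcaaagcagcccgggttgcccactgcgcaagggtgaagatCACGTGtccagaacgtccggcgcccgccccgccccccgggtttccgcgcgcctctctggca
Cdk6: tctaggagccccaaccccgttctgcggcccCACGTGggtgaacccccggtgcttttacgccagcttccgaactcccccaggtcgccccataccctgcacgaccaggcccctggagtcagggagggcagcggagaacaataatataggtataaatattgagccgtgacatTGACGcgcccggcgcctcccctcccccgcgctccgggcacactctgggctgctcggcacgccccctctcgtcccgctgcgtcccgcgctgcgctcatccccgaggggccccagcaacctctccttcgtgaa
The Cdk4 region held 4 E boxes, which begin 172, 118, 98 and 11 bases before the start, and 1 CRE core on the other strand. The Cdk6 region held 1 E box, which begins 220 bases before the start, and 1 CRE core. Of 32851 promoters of the same length in the table, 7.15% held at least 1 CACGTG and 20.8% at least 1 TGACG. Marked elements did not overlap one another. A match is a description of letters and not evidence of binding.

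Which of the 10 transcripts are made in these cells was asked first, per kilobase of annotated exon so that genes of different length can be compared. Ccnd2, which encodes cyclin D2, was the leading D cyclin: it had 324, 400.4 and 390 CPM per kb in rPTH 1, 2 and 3 and 202, 405 and 391 CPM per kb in control 1, 2 and 3. It made up 92.8% ± 1.9 of the D cyclin total per kilobase with rPTH and 92.8% ± 3.29 in controls (SD, n = 3 each). By library the share was 90.6%, 93.96% and 93.8% in rPTH 1, 2 and 3, against 89%, 94.6% and 94.7% in control 1, 2 and 3, so that without control 1 both other controls lay above all rPTH libraries. Control 1 was the lowest library for this gene, followed by rPTH 1, and the rest lay close together. Ccnd1, for cyclin D1, had 17.2 ± 3.71 CPM per kb with rPTH and 11.7 ± 0.543 CPM per kb in controls, and Ccnd3, for cyclin D3, had 11.3 ± 0.995 CPM per kb with rPTH and 11.6 ± 2.1 CPM per kb in controls. Cyclins D1 and D3 therefore each made up 2.4% to 6.14% of the D cyclin total in every library.

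The kinase pair was as uneven. Cdk4 had 115 ± 10.9 CPM per kb with rPTH and 153 ± 54.7 CPM per kb in controls, and Cdk6 had 2.43 ± 0.61 CPM per kb with rPTH and 1.75 ± 0.205 CPM per kb in controls (SD, n = 3 each). Cdk4 supplied 97.2% to 98.4% of the kinase total in rPTH libraries and 98.4% to 99.1% in control libraries. The ratio of Cdk4 to Cdk6 was 34.4, 63.1 and 51.3 in rPTH 1, 2 and 3, against 114, 85.2 and 61.5 in control 1, 2 and 3, so that rPTH 2 lay above control 3 and the groups overlapped. Rb1, the substrate of both kinases, had 9.91 ± 0.573 CPM per kb with rPTH and 8.66 ± 3.66 CPM per kb in controls.

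Among the inhibitors Cdkn1a led. This gene, a CIP/KIP inhibitor and a known p53 target, had 73.7 ± 9.34 CPM per kb with rPTH and 92.3 ± 17.8 CPM per kb in controls (SD, n = 3 each), which was 57.5% to 62.4% of the inhibitor total in rPTH libraries and 59.8% to 61.2% in controls. Cdkn2d, an INK4 inhibitor, had 21.3 ± 2.1 CPM per kb with rPTH and 31.1 ± 13.9 CPM per kb in controls. The other CIP/KIP gene, Cdkn1b, had 14.3 ± 0.568 CPM per kb with rPTH and 14.4 ± 4.14 CPM per kb in controls, and the other INK4 gene, Cdkn2c, had 12.2 ± 0.878 CPM per kb with rPTH and 15.2 ± 3.6 CPM per kb in controls. Summed inhibitor transcripts were 0.308, 0.307 and 0.297 times the summed D cyclin transcripts in rPTH 1, 2 and 3, against 0.828, 0.336 and 0.309 times in control 1, 2 and 3. Control 1 alone held far more inhibitor transcript per D cyclin transcript than the other 5 libraries.

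By group mean the order per kilobase with rPTH was Ccnd2, Cdk4, Cdkn1a, Cdkn2d, Ccnd1, Cdkn1b, Cdkn2c, Ccnd3, Rb1 and Cdk6. In controls the first 4 and the last 3 genes were the same and Cdkn2c, Cdkn1b and Ccnd1 came between them. With rPTH the first 4 genes did not overlap in library values, and from Cdkn2d down to Rb1 each gene's range overlapped that of its neighbour in 4 of 5 steps, the exception being Cdkn1b to Cdkn2c. In control 1 Cdk4 (215 CPM per kb) exceeded Ccnd2 (202 CPM per kb), unlike in any other library. Lengths are the union of all annotated exons and understate levels of genes with many rarely used exons.

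**Figure D1:**
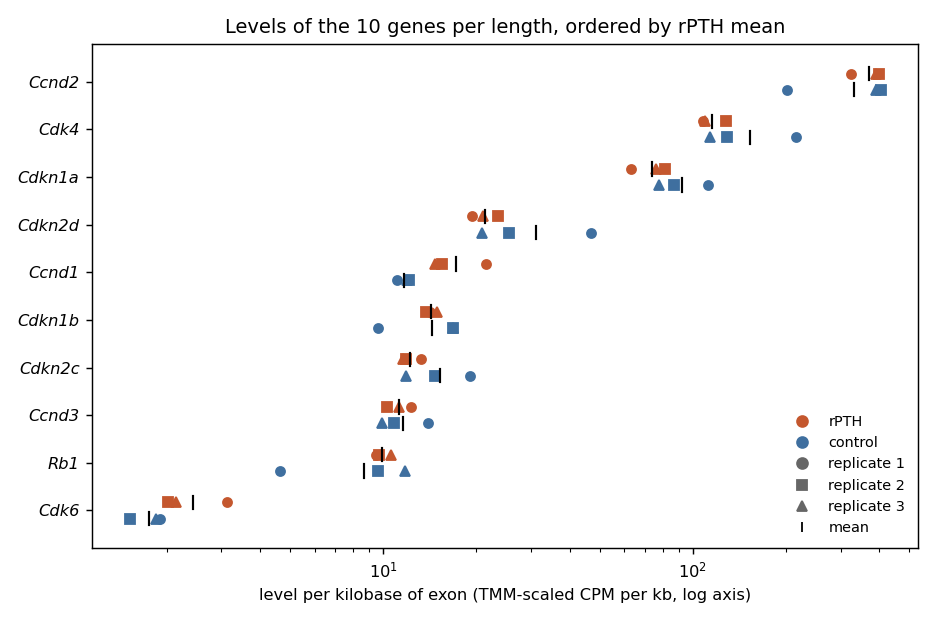
Levels of the 10 genes per kilobase of exon on a log axis, one symbol per library, rPTH in orange above control in blue, with a bar at each group mean. Ccnd2 (324 to 400.4 CPM per kb with rPTH) and Cdk4 (108 to 128 CPM per kb with rPTH) lead, Cdk6 (2.02 to 3.13 CPM per kb with rPTH) is lowest, and control 1 is the outlying control for Ccnd2, Cdk4, Cdkn2d, Cdkn1b and Rb1.

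The main question was whether any of these transcripts differed between rPTH and control. Ccnd1 had 101, 72.6 and 69 CPM in rPTH 1, 2 and 3, against 52.2, 57.1 and 56 CPM in control 1, 2 and 3. All 3 rPTH libraries lay above all 3 controls, and rPTH 1 was highest. The log2 fold change was 0.55 ± 0.19 (SE; 95% interval 0.11 to 1.00), 1.47 times as high, and it did not pass in edgeR (unadjusted p = 0.0221, adjusted p = 0.619). Cdk6 had 43.8, 28.3 and 29.9 CPM in rPTH 1, 2 and 3, against 26.5, 21.2 and 25.8 CPM in control 1, 2 and 3. Again the groups did not overlap and rPTH 1 was highest. Its log2 fold change was 0.47 ± 0.22 (95% interval -0.045 to 0.99; edgeR unadjusted p = 0.0676, adjusted p = 0.619).

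With edgeR 0 of the 10 genes had an adjusted p under 0.05, beside 0 of 16696 tested genes (0% called). Their adjusted p ran from 0.619 to 0.986. DESeq2 and limma-voom also called 0 of the 10; over all genes limma-voom called 0 and DESeq2 called 5, none of them on the cell cycle lists and 1, Thbs2, on the osteoblast and stromal marker list. An unadjusted p under 0.05 was reached by 1 of 10, Ccnd1, against 7.87% of all tested genes in either direction and 1.98% in the higher direction. Groups that did not overlap were found for 2 of 10, both higher, against 16.8% of all tested genes in either direction and 8.35% in the higher direction. The log2 fold change was above 0 for 4 of 10, with a median of -0.024, against 41.5% and a median of -0.087 over all tested genes. These counts are near the shares of all genes in either direction and above them in the higher direction, where they rest on Ccnd1 and Cdk6. All 10 genes passed the low-count filter.

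**Figure D2:**
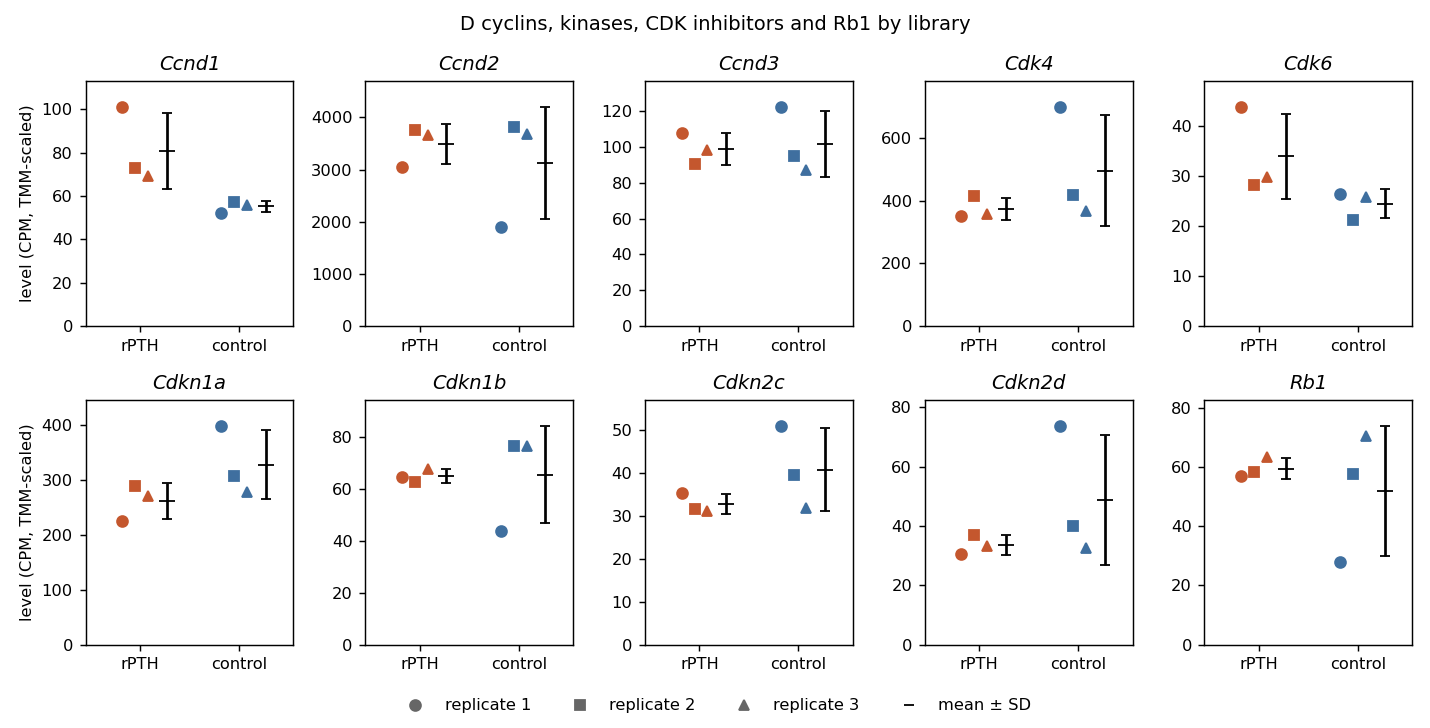
TMM-scaled CPM of each gene in each library, rPTH left of control, with the group mean and SD beside the points; every vertical axis starts at 0. Ccnd1 and Cdk6 are the genes whose 3 rPTH libraries lie above all controls, and in the other 8 panels control 1 is the control farthest from the other 2.

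Ccnd1 and Cdk6 were highest in the library where osteoblast and stromal markers were highest. The library with the most marker transcript, rPTH 1 (4223 CPM), had the highest level of both genes, and the 3 controls, at 2075 to 2324 CPM of markers, had the lowest. Mast cell markers had their lowest sum in rPTH 1 (6438 CPM). Within groups the order was mixed. Control 1, with the most markers among controls (2324 CPM), had the lowest Ccnd1 (52.2 CPM) but the highest Cdk6 of the controls (26.5 CPM). Markers were lower in rPTH 2 than in rPTH 3 (2688 against 2825 CPM), Ccnd1 higher (72.6 against 69 CPM) and Cdk6 lower (28.3 against 29.9 CPM). On the osteoblast and stromal list 22 of the 24 tested genes had a positive log2 fold change (median 0.54 over the list), against 41.5% of all tested genes. For 13 of the 24 the rPTH group lay wholly above the controls, against 8.35% of all tested genes, while 0 passed in edgeR (lowest adjusted p = 0.619). Without rPTH 1 the log2 fold change of Ccnd1 was 0.36 (unadjusted p = 0.0808) and that of Cdk6 0.25 (unadjusted p = 0.252). The part of osteoblast transcripts in the levels of Ccnd1 and Cdk6 was not tested.

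**Figure D3:**
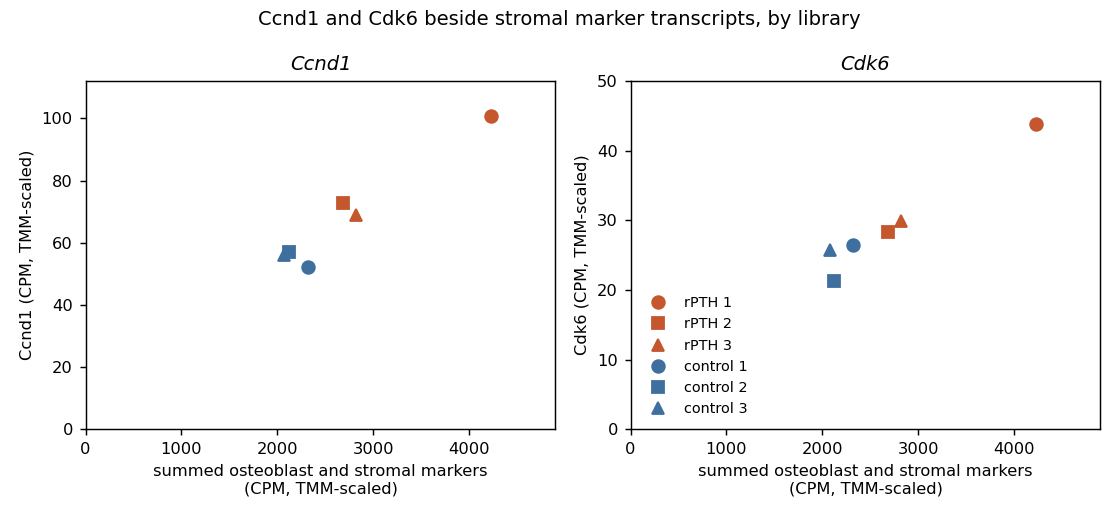
Levels of Ccnd1 (left) and Cdk6 (right) in each library against the summed osteoblast and stromal markers, all in TMM-scaled CPM with axes from 0; orange is rPTH and blue control, and the symbol gives the replicate. The library rPTH 1, with 4223 CPM of markers, has the highest Ccnd1 (101 CPM) and Cdk6 (43.8 CPM).

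The gene with the most reads, Ccnd2, had 3051, 3767 and 3669 CPM in rPTH 1, 2 and 3, against 1898.5, 3809 and 3677 CPM in control 1, 2 and 3. Apart from control 1 the groups were interleaved. The log2 fold change was 0.16 ± 0.33 (SE; 95% interval -0.61 to 0.93; edgeR adjusted p = 0.837), and without control 1 it was -0.11. Ccnd3 had 108, 90.5 and 98.4 CPM in rPTH 1, 2 and 3, against 122, 95.2 and 87 CPM in control 1, 2 and 3. Its groups overlapped, and the log2 fold change of -0.036 ± 0.18 (95% interval -0.47 to 0.39; edgeR adjusted p = 0.936) turned to 0.11 with library totals in place of TMM. The pseudogene Ccnd3-ps had 40 to 56 counts in rPTH libraries and 21 to 101 in controls, beside 3121 to 3510 counts of Ccnd3 in rPTH libraries and 2012 to 2459 in controls.

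Cdk4 had 350.2, 415 and 357 CPM in rPTH 1, 2 and 3, against 699, 420 and 368 CPM in control 1, 2 and 3. Control 1 stood alone and the other 5 libraries overlapped. Its log2 fold change was -0.41 ± 0.28 (95% interval -1.07 to 0.25; edgeR adjusted p = 0.631), and -0.087 without control 1.

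Control 1 was also the highest library for 3 of the 4 inhibitors, all but Cdkn1b. Cdkn1a had 225, 290 and 271 CPM in rPTH 1, 2 and 3, against 399, 308 and 277 CPM in control 1, 2 and 3, with rPTH 2 above control 3. The log2 fold change was -0.32 ± 0.21 (95% interval -0.82 to 0.17; edgeR adjusted p = 0.629), and -0.17 without control 1. Cdkn2d had 30.5, 37.1 and 33.1 CPM in rPTH 1, 2 and 3, against 73.8, 40.1 and 32.7 CPM in control 1, 2 and 3. Its log2 fold change was -0.54 ± 0.31 (95% interval -1.28 to 0.20; edgeR adjusted p = 0.628), and -0.13 without control 1. Control 3 lay among the rPTH libraries for this gene. Cdkn2c had 35.5, 31.8 and 31.1 CPM in rPTH 1, 2 and 3, against 51.1, 39.6 and 31.8 CPM in control 1, 2 and 3, and a log2 fold change of -0.32 ± 0.21 (95% interval -0.80 to 0.17; edgeR adjusted p = 0.629), which was -0.14 without control 1.

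Cdkn1b and Rb1 had the opposite shape. Cdkn1b had 64.7, 62.8 and 67.9 CPM in rPTH 1, 2 and 3, against 43.9, 76.5 and 76.5 CPM in control 1, 2 and 3. The rPTH libraries lay between control 1 and the other 2 controls, and the log2 fold change was -0.012 ± 0.24 (95% interval -0.57 to 0.55; edgeR adjusted p = 0.986). Without control 1 it was -0.24, with an unadjusted p of 0.0159 and an adjusted p of 0.40 in edgeR. In that fit 2165 of 17454 tested genes had an unadjusted p under 0.05. With library totals in place of TMM the log2 fold change of Cdkn1b was 0.075. Rb1 had 57, 58.3 and 63.5 CPM in rPTH 1, 2 and 3, against 27.8, 57.8 and 70.7 CPM in control 1, 2 and 3, a log2 fold change of 0.19 ± 0.32 (95% interval -0.58 to 0.96; edgeR adjusted p = 0.805). The groups overlapped, and it was -0.12 without control 1.

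Over these 10 genes alone, the difference of control 1 from the other controls ran with base composition. Relative to the mean of controls 2 and 3 on the log2 scale, the 5 genes with the highest GC content in their longest transcript were higher in control 1: Cdk4 (53.3% GC) by 0.83, Cdkn1a (54.4%) by 0.45, Cdkn2d (55.8%) by 1.03, Ccnd3 (56.7%) by 0.42 and Cdkn2c (58%) by 0.52. Of the 5 with the lowest GC content 4 were lower in control 1, at -1.20 for Rb1 (41.2%), -0.80 for Cdkn1b (43.1%), -0.98 for Ccnd2 (47.1%) and -0.11 for Ccnd1 (50.9%), and Cdk6 (45.1%) was at 0.18. Across the 10 genes Pearson's r of this difference was 0.84 with GC content and -0.51 with log2 exon length, as a description of genes that share 1 set of libraries. GC content and exon length were not told apart. The differences include the TMM scaling, with a factor of 0.81 for control 1, 1.03 for control 2 and 1.04 for control 3. A lower factor raises every gene of a library by about the same amount, so the sign of a difference can depend on it while r does not. After removal of each library's trend on length and GC, the log2 fold changes were 0.53 for Ccnd1, 0.047 for Cdk6, -0.27 for Cdk4, -0.23 for Cdkn1a, -0.15 for Cdkn2d and -0.11 for Cdkn2c. Ccnd1 kept its size under that correction (edgeR unadjusted p = 0.0141, adjusted p = 0.811), while Cdk6, which has the longest exons of the 10 at 13.99 kb, did not.

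**Figure D4:**
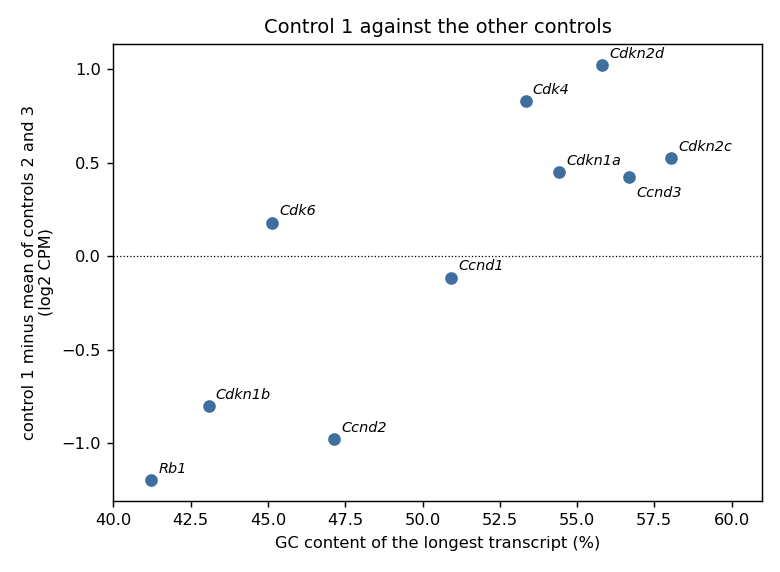
For each of the 10 genes, the level in control 1 minus the mean of controls 2 and 3 (log2 CPM, vertical axis) against the GC content of its longest transcript (horizontal axis, %). Rb1, Cdkn1b and Ccnd2 lie at -1.20 to -0.80 and the 5 genes of highest GC content at 0.42 to 1.03.

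**Figure D5:**
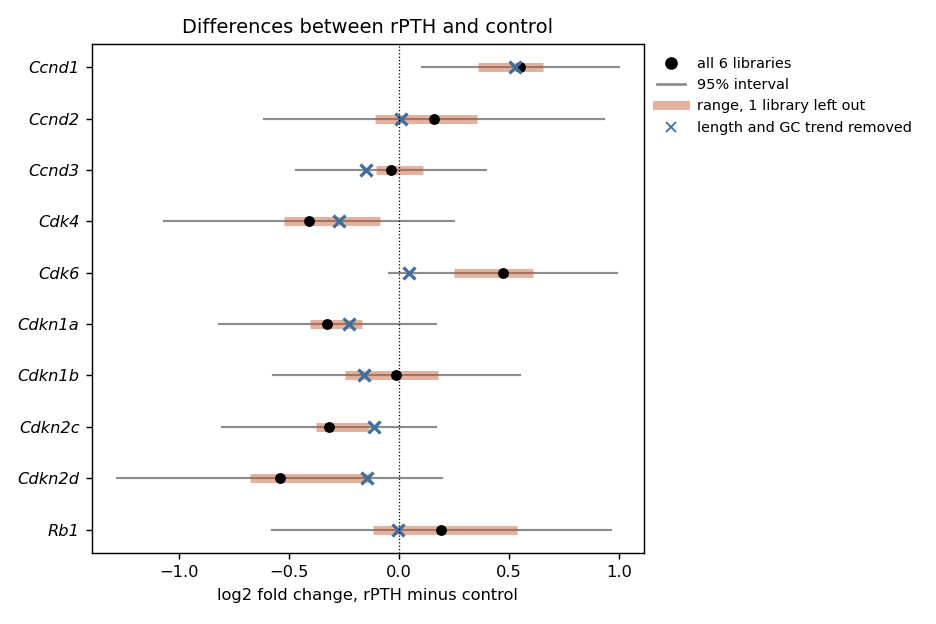
Log2 fold change of each gene, rPTH minus control, with its 95% interval (grey line), the range when 1 library is left out (orange bar) and the value after removal of the length and GC trend (blue cross). The interval of Ccnd1 (0.11 to 1.00) lies above 0 without adjustment, and the crosses of Cdk6 (0.047), Ccnd2 (0.0076) and Rb1 (-0.0052) lie near 0.

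In the authors' deposited table the log2 fold change was 0.58 for Ccnd1 (adjusted p = 0.201) and 0.51 for Cdk6 (adjusted p = 0.326), the smallest adjusted p of the 10. In the authors' deposited table the other 8 ran from -0.38 (Cdkn2d) to 0.21 (Rb1), with an adjusted p of 0.669 to 0.946.

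The rest of the switch was read from lists of pathway genes, in which 0 genes passed in edgeR. Of the other CDK inhibitors Cdkn2a, whose locus encodes an INK4 protein and the p53 activator ARF, had 11.8 ± 2.96 CPM with rPTH and 16.3 ± 13.1 CPM in controls (SD, n = 3 each). By library Cdkn2a had 31.5, 8.71 and 8.78 CPM in control 1, 2 and 3, against 15, 11.1 and 9.25 CPM in rPTH 1, 2 and 3. Its higher control mean therefore rests on control 1, and the other controls lay below all rPTH libraries. Cdkn2b, the INK4 neighbour of Cdkn2a, had 3.98 ± 1.21 CPM with rPTH and 3.55 ± 1.9 CPM in controls, and the phosphatase gene Cdkn3 had 11.8 ± 1.79 CPM with rPTH and 15.3 ± 7.4 CPM in controls. Control 1 was also the highest library for Cdkn2b and Cdkn3. Cdkn1c, the third CIP/KIP gene, had 0 to 1 count in rPTH libraries and 0 to 2 in controls and was too low to test. Of 12 other pocket protein, E2F and DP genes 9 were above 0 (median log2 fold change 0.17), against 41.5% and a median of -0.087 over all tested genes. The 12 genes summed to 639 CPM in control 1, the low library, against 785 and 756 CPM in control 2 and 3. Their sum in rPTH libraries was 770 to 789 CPM. The pocket protein genes Rbl1 (68.3 ± 3.54 CPM with rPTH and 59.4 ± 20 CPM in controls) and Rbl2 (90.7 ± 6.21 CPM with rPTH and 78.1 ± 30.5 CPM in controls) differed by less than the spread of the controls. E2f1 had 68 ± 0.33 CPM with rPTH and 81.5 ± 24.8 CPM in controls, E2f2 had 25.5 ± 2.83 CPM with rPTH and 29.9 ± 2.45 CPM in controls, and the E2F partner gene Tfdp1 had 212 ± 13.7 CPM with rPTH and 185 ± 18.5 CPM in controls. Only 1 of the 12 genes, Tfdp1, had groups that did not overlap, on the higher side, against 8.35% of all tested genes.

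Of the later cyclins, their kinases and activators 5 of 14 were above 0 (median log2 fold change -0.12), against 41.5% and a median of -0.087 over all tested genes. The 14 genes summed to 1320 CPM in control 1, the high library, against 1087 and 1037 CPM in control 2 and 3. In rPTH libraries they summed to 1038 to 1111 CPM. The cyclin E genes Ccne1 (35.9 ± 1.1 CPM with rPTH and 41.1 ± 13.1 CPM in controls) and Ccne2 (25.5 ± 2.35 CPM with rPTH and 21.9 ± 6.32 CPM in controls) and the kinase gene Cdk2 (118 ± 9.1 CPM with rPTH and 128 ± 7.83 CPM in controls) had adjusted p of 0.725 to 0.742 in edgeR. Ccna2, for cyclin A2, had 198 ± 12.4 CPM with rPTH and 185 ± 9.11 CPM in controls. The mitotic cyclin gene Ccnb2 had 86.7 ± 6.57 CPM with rPTH and 113 ± 35.8 CPM in controls, and Ccnf had 89.3 ± 3.41 CPM with rPTH and 102 ± 10.4 CPM in controls. The log2 fold change of Ccnb2 was -0.38, and -0.10 without control 1.

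Genes that act on D cyclins and CIP/KIP proteins had 6 of 11 tested members above 0 (median log2 fold change 0.020), with the ubiquitin ligase subunit gene Skp2, which targets the Cdkn1b product, at 32.7 ± 2.07 CPM with rPTH and 27.1 ± 4.83 CPM in controls, and Fbxo31 at 28.9 ± 2.48 CPM with rPTH and 35.4 ± 7.08 CPM in controls. Upstream transcription factors had 7 of 13 tested members above 0 (median 0.0089). Myc, whose product is known to bind E boxes, had 144 ± 7.16 CPM with rPTH and 171 ± 27.6 CPM in controls. Trp53 had 104, 120 and 118 CPM in rPTH 1, 2 and 3, against 150, 138 and 124 CPM in control 1, 2 and 3, all lower with rPTH, and its log2 fold change was -0.26 ± 0.16 (SE; edgeR adjusted p = 0.628), or -0.13 for Trp53 with library totals in place of TMM. Zbtb17, whose product partners MYC at CDK inhibitor promoters, had 25.1 ± 1.2 CPM with rPTH and 32.2 ± 6.75 CPM in controls, and Klf4 had 3.63 ± 1.33 CPM with rPTH and 2.4 ± 0.206 CPM in controls. Non-overlapping groups were seen for 1 of these 13 on the higher side and 3 on the lower, against 8.35% and 8.46% of all tested genes.

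Among 15 p53 targets 6 were above 0 (median log2 fold change -0.025), and 2 had an unadjusted p under 0.05, both lower, against 5.89% of all tested genes. Bbc3, which encodes the death factor PUMA, had 11.7, 11.4 and 10.4 CPM in rPTH 1, 2 and 3, against 25.1, 17.3 and 14.6 CPM in control 1, 2 and 3 (log2 fold change -0.76 ± 0.24, SE; edgeR adjusted p = 0.619). For Bbc3 it was -0.43 with the length and GC trend removed and -0.52 without control 1. Sesn2, a stress-induced regulator of growth signalling, had 39, 42.1 and 41.1 CPM in rPTH 1, 2 and 3, against 48.6, 55.9 and 51.3 CPM in control 1, 2 and 3 (-0.35 ± 0.14; edgeR adjusted p = 0.619). The p53 antagonist Mdm2 had 136 ± 5.6 CPM with rPTH and 136 ± 19.9 CPM in controls. E2F targets of S phase had 5 of 18 above 0 (median -0.15), against 41.5% and a median of -0.087 over all tested genes. The 18 genes summed to 3909 CPM in control 1, the high library, against 3231 and 2991 CPM in control 2 and 3. Their sum in rPTH libraries was 3076 to 3272 CPM. The replication clamp gene Pcna had 293 ± 17.8 CPM with rPTH and 338 ± 107 CPM in controls. By library Pcna had 461, 272 and 280 CPM in control 1, 2 and 3, against 286, 314 and 281 CPM in rPTH 1, 2 and 3. Cdt1 had 91.2 ± 9.19 CPM with rPTH and 110 ± 24 CPM in controls, and Gins2 had 34.7 ± 2.5 CPM with rPTH and 44.9 ± 18.4 CPM in controls. Proliferation markers had 5 of 8 above 0 (median 0.030). Mki67 had 909 ± 91.1 CPM with rPTH and 822 ± 246 CPM in controls, the mitotic kinase gene Aurkb 72.5 ± 4.84 CPM with rPTH and 89 ± 9.86 CPM in controls, and the checkpoint kinase gene Bub1 92.5 ± 9.36 CPM with rPTH and 71.2 ± 10.9 CPM in controls.

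The genes whose log2 levels were most like those of the D cyclins over the 6 libraries were named by Pearson's r, as a description. For Ccnd1 they included Ptprk (r = 0.997), a receptor phosphatase gene with 47.7 ± 12.4 CPM with rPTH and 31.4 ± 2.24 CPM in controls. For Ccnd2 they included Lrp12 (r = 0.999), and for Ccnd3 they were Tcf25 (r = 0.994) and Wwp2 (r = 0.982). Out of 14522 genes compared, 521, 1721 and 493 had r above 0.9 with Ccnd1, Ccnd2 and Ccnd3, so close likeness over so few libraries is common. Among the 10 genes themselves Cdk4 and Cdkn2d were the most alike (r = 0.996), and Ccnd1 and Cdk6 had r = 0.892.

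In GENCODE M21 on GRCm38 the D cyclin genes span chromosome 7 from 144929931 to 144939925 (Ccnd1), chromosome 6 from 127125162 to 127152193 (Ccnd2) and chromosome 17 from 47505051 to 47599691 (Ccnd3). Exons on the opposite strand share 1100 bases with Ccnd1 (Oraov1, 23.4% of its exon bases), 641 bases with Cdk4 (Tspan31, 19.7%), 361 bases with Ccnd3 (Bysl, 4.1%), and 488 and 408 bases with Rb1 (Rcbtb2 and Lpar6). No source used here gives the strand mode of counting, and reads in these stretches cannot be assigned with certainty. Oraov1 had 457 to 593 counts in rPTH libraries and 325 to 426 in controls, fewer than Ccnd1, which had 2459 to 3178 in rPTH libraries and 1031 to 1475 in controls.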

How the data were processed

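RNA from 6 libraries was sequenced by the submitters. Per the labels' protocols, RNA came from Trizol extraction and an Illumina TruSeq RNA kit was used for libraries. The submitters' processing notes name Trimmomatic 0.36, STAR 2.5.2b, Subread 1.5.0p3 with featureCounts, DESeq2 1.12.4 and R 3.3.0, and the builds GRCm38.p5 and mm9, with no role or order. Annotation and strand mode are not given in the sources used here. Per gene, the authors deposited whole-number counts, a normalized signal (counts divided by 1 size factor per library), and regularised log2 values, which were not used further. The authors' deposited comparison table holds log2 fold changes with standard errors, a score (the Wald statistic), p-values and a mean signal per gene; only its fold changes and adjusted p were quoted.

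Counts were tested with edgeR 4.0.16 in R 4.3.3 (quasi-likelihood, robust, TMM, filterByExpr with a minimum count of 10, Benjamini-Hochberg over all 16696 tested genes, threshold 0.05, two-sided), checked on simulated data. Alternatives used DESeq2 1.42.0, limma-voom 3.58.1, other scalings, filters, a length and GC correction, a replicate block and left-out libraries. No 2 libraries were duplicates (chi-square between counts, per degree of freedom, at least 12). GENCODE M21 gave exon lengths and GC content for 47206 of 49568 symbols. Depth was 22282095 to 33577977 counts per library, and reads carry no molecular identifiers. Intervals of fold changes are 95% from the fit. The 10 genes, the lists and the tests were chosen with earlier results of these data known. By rule, the text names all 10 genes, the tested genes of smallest p in each list (up to 2, mean of at least 1 CPM), 16 set pathway genes and the 2 genes most like each D cyclin, of which 2 in all are not reported here.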

Additional observations from a re-analysis of the deposited data

How the results depend on the processing

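With edgeR 0 genes had an adjusted p under 0.05, with 1314 at an unadjusted p under 0.05. That count was also 0 in the other edgeR and limma-voom alternatives except with control 2 as the only control (2 genes, Cecr2 and Fgf12, named after their values were seen). DESeq2 on the same filtered genes called 5 (Olfr56, Gm11694, Gm7079, Thbs2 and Pde8a, also named after their values were seen), and DESeq2 without the low-count filter, an alternative chosen after seeing the data, called 8; the cause was not tested. In all 19 alternatives 0 of the 10 genes passed. Library totals in place of TMM moved the median log2 fold change of all genes by 0.13 and the share of genes higher with rPTH among those at an unadjusted p under 0.05 to 43.3%, against 25.2%. Ccnd1, Cdk6, Cdk4, Cdkn1a, Cdkn2c and Cdkn2d kept their sign in all 19 alternatives. Leaving aside control 2 as the only control, an arm of 1 library assumed to vary like the rPTH group (Cdk6 at 0.68), their values were 0.36 to 0.67, 0.047 to 0.61, -0.52 to -0.087, -0.41 to -0.17, -0.38 to -0.11 and -0.67 to -0.11 in that order. The unadjusted p of Ccnd1 was under 0.05 in 15 of these 18 alternatives and that of Cdk6 in 8.

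Of 741 alternative values of 39 named genes 59 changed sign, none of them called in any fit. For Mdm2 (0.0069 with at least 1 CPM in 3 libraries, 0.0066 among protein-coding genes, 0.011 with upper quartile factors) the values lay close to 0. The signs turned with DESeq2 and with its size factors in edgeR alike for Ccnd3 (0.0299 and 0.02995), Cdkn1b (0.032) and Mdm2 (0.051), with DESeq2 unfiltered for the same genes (0.049, 0.055 and 0.074), with library totals (0.11, 0.075 and 0.10) and without a filter (0.10, 0.086 and 0.11). With limma-voom they turned for Cdkn1b (0.031) and Mdm2 (0.0105). With control 2 as the only control they turned for Ccnd2 (-0.12), Ccnd3 (0.055), Cdkn2a (0.43), Cdkn3 (0.072), Mki67 (-0.085), Pcna (0.11), Rbl1 (-0.076) and Rbl2 (-0.062). With the length and GC trend removed they turned for Ccne2 (-0.027), Cdkn2a (0.13), Mki67 (-0.047) and Rb1 (-0.0052). With 1 library left out the log2 fold changes ran from -0.11 to 0.35 for Ccnd2, -0.10 to 0.11 for Ccnd3, -0.24 to 0.18 for Cdkn1b, -0.12 to 0.54 for Rb1, -0.29 to 0.084 for Ccne1, -0.0086 to 0.47 for Ccne2, -0.78 to 0.42 for Cdkn2a, -0.11 to 0.67 for Cdkn2b, -0.55 to 0.094 for Cdkn3, -0.37 to 0.0063 for E2f1, -0.51 to 0.0046 for Gins2, -0.13 to 0.16 for Mdm2, -0.095 to 0.34 for Mki67, -0.34 to 0.079 for Pcna, -0.065 to 0.39 for Rbl1 and -0.088 to 0.46 for Rbl2.

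Deviations from the group mean had r = -0.13, -0.32 and 0.14 between libraries sharing number 1, 2 and 3. Libraries of unlike number had r from -0.27 to 0.35. With 3 libraries per group and control 1 and control 3 outlying, this cannot show whether the numbers pair the samples. A replicate block gave 0 calls and 525 genes at an unadjusted p under 0.05, and turned Cdkn1b (0.032) and Mdm2 (0.0096); the replicate block with the length and GC trend removed also gave 0 calls and turned Ccne2 (-0.0295), Cdkn2a (0.25) and Mki67 (-0.046). The shares of Ccnd2, Cdk4 and Cdkn1a in their totals differed between rPTH and control by 0.004, -0.89 and 0.073 percentage points. With 1 library left out these ran from -1.90 (without control 1) to 1.10 (without rPTH 1) for Ccnd2, -1.16 (without rPTH 2) to -0.53 (without rPTH 1) for Cdk4 and -0.87 (without rPTH 2) to 1.56 (without rPTH 1) for Cdkn1a, so the values near 0 for Ccnd2 and Cdkn1a rest on single libraries.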
